A study of Mus musculus with 3 samples.

Results

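The mir-106b-25 and mir-106a-363 clusters are the paralogs of the mir-17-92 polycistron, and their RNAs were measured by small RNA sequencing in AoSMC, the contractile cells of the mouse aortic wall in primary culture. Members were chosen by name, as every listed microRNA (miR) and microRNA-offset RNA (moR) of the hairpins mmu-miR-106b, mmu-miR-93 and mmu-miR-25 of mir-106b-25 and of mmu-miR-106a, mmu-miR-18b, mmu-miR-20b and mmu-miR-363 of mir-106a-363. The hairpins are written Mir106b and so on here, after their genes. This gave 18 of 2590 listed rows, 12 from mir-106b-25 and 6 from mir-106a-363, each row being a miR or the moR beside it. The rows came from 6 of the 7 hairpins, since no row of miR-363 was among those analysed here. The cells grew out of explants of several aortas from C57BL/6 mice, the labels name no treatment, and they were harvested near confluence. The series held 1 group of 3 replicate libraries, so every comparison is between RNAs of the same library. The labels call the libraries biological replicates without saying whether they came from separate cultures, so p-values cover the spread among these 3 libraries and nothing more, and that spread may be technical.

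Drosha and then Dicer release a miR from its hairpin, and either arm of the hairpin, 5p or 3p, can give the mature strand that Argonaute holds. Its seed, the bases near the 5′ end that pair with target mRNAs, largely sets which messages it represses, so miRs with the same seed are counted as a family. The mir-17-92 polycistron and its paralogs are known for promoting proliferation through targets such as the cell cycle inhibitor p21 and the regulator of apoptosis Bim. A moR lies directly outside the miR on a hairpin arm.

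The sequences below show how the paralogs pair up, with the seed, bases 2 to 8, in capitals. They are RefSeq sequences of GRCm38.p6. The first set carries the seed AAAGUGC and lists the mir-106b-25 members before their mir-106a-363 counterparts and the mir-17-92 relatives.
miR-93-5p: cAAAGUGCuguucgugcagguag
miR-106b-5p: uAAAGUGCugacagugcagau
miR-106a-5p: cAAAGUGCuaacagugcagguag
miR-20b-5p: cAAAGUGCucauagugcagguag
miR-17-5p: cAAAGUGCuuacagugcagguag
miR-20a-5p: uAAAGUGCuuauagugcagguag

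The second set carries the seed AUUGCAC, shared by miR-25-3p, its counterpart miR-363-3p and the mir-17-92 product miR-92a-3p.
miR-25-3p: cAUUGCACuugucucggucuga
miR-363-3p: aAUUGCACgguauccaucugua
miR-92a-3p: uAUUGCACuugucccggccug

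The third set carries the seed AAGGUGC and has no member in mir-106b-25.
miR-18b-5p: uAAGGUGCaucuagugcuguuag
miR-18a-5p: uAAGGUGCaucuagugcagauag

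The other strands of the mir-106b-25 hairpins each had a seed found in no other mature mouse miR of the RefSeq table, and they are shown because miR-106b-3p was nearly as abundant as its partner strand.
miR-106b-3p: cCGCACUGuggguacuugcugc
miR-93-3p: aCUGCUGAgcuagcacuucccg
miR-25-5p: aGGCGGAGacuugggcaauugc

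Positions are counted from 1 at the 5′ end, and the base of the miR named first is written first. Between miR-93-5p and miR-20b-5p there were 3 substitutions (G10C, U11A and C13A). Between miR-106b-5p and miR-106a-5p there were also 3 over the shared 21 bases (U1C, G10A and A20G). miR-25-3p and miR-363-3p differed at 13 of 22 positions, none of them in the seed. miR-25-3p was nearer to miR-92a-3p, which is encoded on chromosomes 14 and X, with 3 substitutions over the shared 21 bases (C1U, U14C and U18C). miR-106a-5p differed from miR-17-5p of the polycistron at a single base (A10U).

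All hairpins lie on the minus strand (mm10). Mir106b is at chr5:138165737-138165818, Mir93 at chr5:138165523-138165610 and Mir25 at chr5:138165321-138165404, together 498 bp. By GENCODE M21 they lie within an intron of the main transcript of Mcm7, a subunit of the helicase that opens DNA for replication, and Mir93 and Mir25 also overlap an exon of a transcript of that gene that retains the intron. On chromosome X, Mir106a is at chrX:52742503-52742567 and overlaps an exon of the noncoding gene Kis2. Mir18b is at chrX:52742331-52742413, Mir20b at chrX:52742113-52742192 and Mir363 at chrX:52741693-52741767, none of them within another annotated gene. The X span of 875 bp also holds Mir19b-2 and Mir92-2, which are not members and whose mature 3p miRs are also encoded on chromosome 14.

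The libraries held 13632069, 12546339 and 15175671 reads in miR and moR windows, which were 73.1%, 83.0% and 81.9% of mapped reads. Levels are given in RPMR, the authors' RPM value over these window reads, in which 1 read was worth 0.0659 to 0.0797 RPMR. The smooth muscle miRs miR-143 and miR-145a summed to 48742 to 59042 RPMR. The endothelial miR-126a was at 125 to 158 RPMR and 3 blood cell miRs summed to 0.513 to 0.923 RPMR. Of the striated muscle miRs, miR-1a averaged 1.02 and miR-133a 0.0163 RPMR, while miR-206 was at 116 to 150 RPMR. Their part in the levels below was not tested. Reads carried no molecular identifiers, so all intervals are 95% exact intervals that cover counting error only.

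To compare the clusters, the reads of the members of each were summed over miRs and moRs. The mir-106b-25 cluster had 39411, 44768 and 64167 reads in replicates 1, 2 and 3, and the members of mir-106a-363 had 4, 4 and 9 reads. In RPMR these were 3563 ± 669 for mir-106b-25 and 0.402 ± 0.166 for mir-106a-363 (SD, n = 3). The libraries did not overlap between these sums. The ratio of mir-106b-25 to the mir-106a-363 members was 9853 (3848 to 36163), 11192 (4371 to 41078) and 7130 (3756 to 15593) in the 3 libraries. Its mean was 9391 ± 2070 (SD, n = 3). The width of these intervals came from the 17 mir-106a-363 reads, a sum with a Poisson interval of 9.90 to 27.2. This sum leaves out the X neighbours Mir19b-2 and Mir92-2. Their 3p miRs were assigned 12462 and 36231.5 reads, which were not fully separated from the chromosome 14 copies. The ratio thus holds for the members and not for the whole X cluster.

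Within mir-106b-25, miR-25-3p was the most abundant, with 18640, 22720 and 31461 reads, or 1367, 1811 and 2073 RPMR. It averaged 1750 ± 357 RPMR (SD, n = 3) and ranked 48 of 1295 listed miRs. miR-93-5p followed with 14762, 15904 and 24589 reads, or 1083, 1268 and 1620 RPMR, a mean of 1324 ± 273 (SD, n = 3) and rank 54. The ranges of these RPMR values overlapped between libraries, although miR-25-3p was higher within each library, by 1.26-, 1.43- and 1.28-fold.

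The Mir106b hairpin gave less RNA than its neighbours. miR-106b-5p had 2882, 2997 and 4222 reads, a mean of 243 ± 33.6 RPMR (SD, n = 3). Its partner miR-106b-3p had 2791, 2827 and 3486 reads, a mean of 220 ± 13.3 RPMR (SD, n = 3). miR-93-5p exceeded miR-106b-5p by 5.12-, 5.31- and 5.82-fold, and their libraries did not overlap. The minor strands were far lower. miR-25-5p averaged 16.2 ± 0.620 RPMR from 231, 200 and 240 reads, and miR-93-3p averaged 8.86 ± 1.40 RPMR from 103, 109 and 157 reads (SD, n = 3). With 3 libraries the two-sided sign-flip test, an exact permutation test, cannot give a p below 0.25, which is the value for each of 5 such ratios within the cluster, before and after adjustment.

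Among mir-106a-363 members, reads were few. miR-106a-5p, the counterpart of miR-106b-5p, had 3, 3 and 7 reads (Poisson interval of the sum 6.92 to 22.2), a mean of 0.307 ± 0.134 RPMR (SD, n = 3) and rank 644. miR-18b-5p had 0, 1 and 2 reads (0.619 to 8.77) and miR-20b-5p had 1, 0 and 0 (0.0253 to 5.57). Both lay at or under the floor of 3 reads over the 3 libraries that a count of 0 allows, as did the unlisted 3p strands of Mir106a, Mir18b and Mir20b and both strands of Mir363, taken as 0 reads because the deposited tables list pairs with reads. The order of miR-18b-5p and miR-20b-5p was not distinguishable at this depth.

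**Figure D1:**
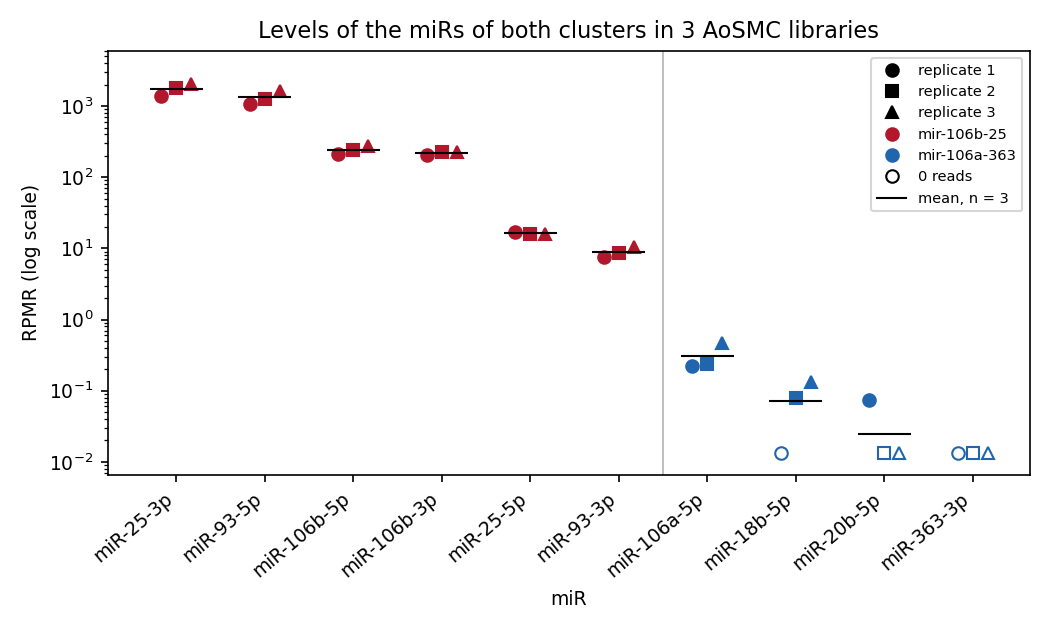
Level of each miR in RPMR (log scale) in the 3 libraries, mir-106b-25 at the left and mir-106a-363 at the right. Points are libraries, black lines are means, and open points mark 0 reads and are drawn at an arbitrary height below 1 read. The lowest mir-106b-25 miR averaged 8.86 RPMR and the highest mir-106a-363 miR 0.307 RPMR.

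Paralog pairs were then compared within each library. miR-106b-5p exceeded miR-106a-5p by 961-, 999- and 603-fold, or 777-fold (454 to 1460) over the summed reads. miR-93-5p exceeded miR-20b-5p by 14762-fold in replicate 1, where miR-20b-5p had its 1 read, and was at least 5301- and 8196-fold higher in replicates 2 and 3, against the floor of 3 reads per library. Over the sums the ratio was 55255 (9917 to 2182496). miR-25-3p was at least 6213-, 7573- and 10487-fold higher than miR-363-3p in the 3 libraries, against the floor of 3 reads per library, and at least 24274-fold higher over the sums. This holds for miR-363-3p, its counterpart among the members. The nearer miR-92a-3p, also encoded on chromosome X, gave no separate level there. The direction held in 3 of 3 libraries for each of the 3 pairs, and the exact sign-flip permutation p was 0.25 for each, before and after adjustment over the pairs, the smallest value this design allows.

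Near-identical sequences set a limit on the mir-106a-363 values. The 13 reads of miR-106a-5p equalled 0.0307% (0.0164% to 0.0526%) of those of miR-17-5p, from which it differs by A10U. By library the share was 0.0282%, 0.0247% and 0.0359%. The 3 reads of miR-18b-5p equalled 0.0636% of those of miR-18a-5p, from which it differs by U18A and U20A. miR-20b-5p, with 1 read, differs from miR-20a-5p by C1U and C10U. The authors allowed no mismatch, and the part that sequencing errors in miR-17-5p, miR-18a-5p or miR-20a-5p had in these few reads was not tested.

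The non-member neighbours on chromosome X could not be fully separated from their chromosome 14 copies. For miR-19b-3p the authors' even split gave 3804, 3604.5 and 5053.5 reads to chromosome X, against 3800, 3606.5 and 5039.5 to chromosome 14. miR-92a-3p had 13259.5, 9526.5 and 13445.5 reads assigned to chromosome X, against 20555.5, 16128.5 and 22386.5 to chromosome 14. Its chromosome 14 surplus of 7296, 6602 and 8941 reads lies outside an even split, and the source of these reads was not tested. The 5p strands that tell the copies apart had 0 listed reads at Mir92-2 and Mir19b-2, against 331 reads at Mir92-1 and 18 at Mir19b-1. The reads assigned to Mir19b-2 and Mir92-2 therefore give no level for the X cluster.

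Against the mir-17-92 polycistron, which had 4405, 4830 and 5973 RPMR, mir-106b-25 was lower in each library, with ratios of 0.656, 0.739 and 0.708 (mean 0.701 ± 0.0416, SD, n = 3). The polycistron's total includes the chromosome 14 share of miR-19b-3p and miR-92a-3p. It leaves out the 12462 and 36231.5 reads of these 2 miRs that were assigned to chromosome X. Any of those reads that came from chromosome 14 would raise the total and lower the ratios. Mir25 held 49.5% ± 1.66 of the mir-106b-25 reads, Mir93 held 37.4% ± 1.43 and Mir106b held 13.1% ± 1.20 (SD, n = 3). The highest hairpin exceeded the lowest by 3.33-, 3.94- and 4.11-fold in mir-106b-25, and by 13.3-, 15.0- and 15.5-fold among the 6 hairpins of mir-17-92. The range in mir-17-92 counts only the chromosome 14 share of Mir19b-1 and Mir92-1.

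Reads were next grouped by seed, over the listed miRs with a RefSeq sequence, which were 1094 of 1295 and 92.4% of miR reads. The miRs with AAAGUGC summed to 4514 ± 1053 RPMR (SD, n = 3). Of these, miR-93-5p and miR-106b-5p together held 36.7%, 34.3% and 33.8% (mean 34.9% ± 1.53, SD, n = 3). The mir-106a-363 members held 0.00732% on average, and miR-17-5p and miR-20a-5p held 65.1%. The miRs with AUUGCAC summed to 4206 ± 362 RPMR (SD, n = 3). miR-25-3p held 34.3%, 45.1% and 44.8% of them (mean 41.4% ± 6.16, SD, n = 3), replicate 1 being the low one. miR-92a-3p held 54.8% on average, miR-32-5p 3.23% and miR-92b-3p 0.561%. With AAGGUGC, miR-18a-5p stood at 113 ± 21.9 RPMR (SD, n = 3) and miR-18b-5p held 0.0565% of the reads.

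**Figure D2:**
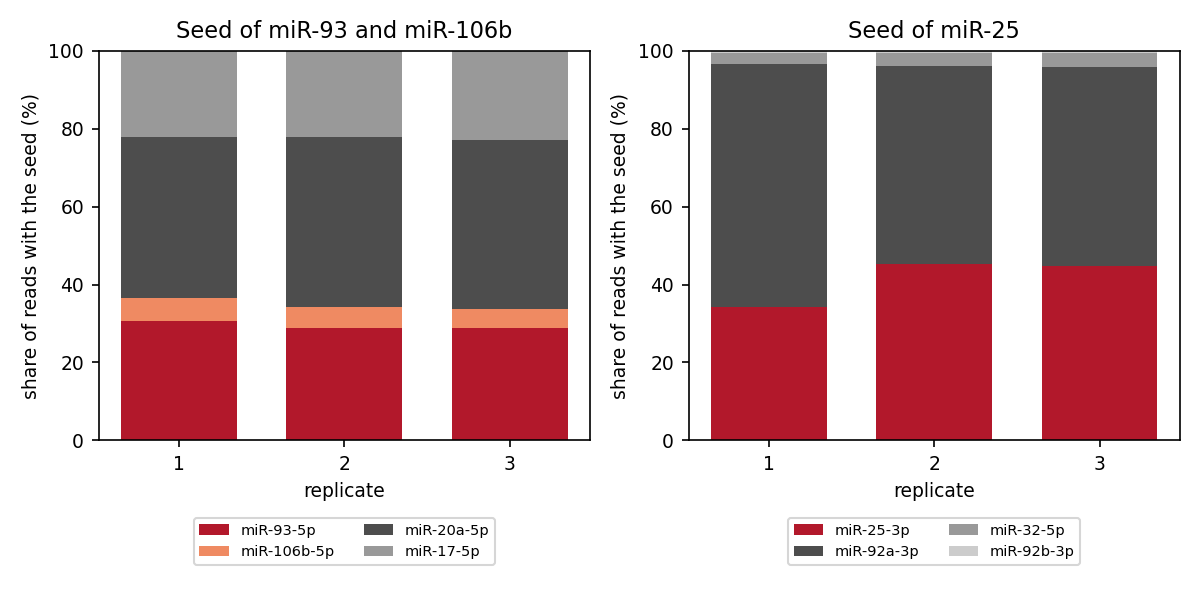
Share of the reads with the seed of miR-93-5p and miR-106b-5p (left) or of miR-25-3p (right) held by each miR, in percent, in each of the 3 libraries. Red and orange segments are mir-106b-25 and grey segments are other loci. The mir-106b-25 share averaged 34.9% on the left and 41.4% on the right, and the mir-106a-363 members are too low to be seen.

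To find which strand each hairpin yields, 5p and 3p miRs of a hairpin were compared by the quasi-likelihood test of edgeR, blocked by library, and p-values were adjusted over all hairpins after Benjamini and Hochberg. Of 432 hairpins tested, 88.7% were called in either direction at an adjusted p under 0.05, 42.8% with 5p higher and 45.8% with 3p higher. In all 3 mir-106b-25 hairpins each arm alone had well over the 10 reads required of the sum of both, and 2 of these hairpins were called. The 3 mir-106b-25 hairpins differed in their calls, with 5p higher in Mir93, 3p higher in Mir25 and neither called in Mir106b. In the mir-17-92 list all 6 hairpins were called, 3 in each direction.

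Mir93 had 14762, 15904 and 24589 reads on 5p and 103, 109 and 157 on 3p, a mean ratio of 149 ± 7.05 (SD, n = 3; log2 fold change 7.22 ± 0.16 SE, edgeR adjusted p = 9.1e-16). Mir25 had a log2 fold change of 5p over 3p of -6.73 ± 0.18 SE (edgeR adjusted p = 7.5e-15). Its ratio turned round, 3p over 5p, was 80.7 (70.9 to 92.3), 113.6 (98.8 to 131) and 131 (115 to 149), so replicate 1 lay apart from the others beyond counting error. The absolute difference was smaller than that of Mir25 in 71.3% of hairpins and smaller than that of Mir93 in 75.0%.

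Mir106b gave its strands in nearly equal number. The 5p strand held 50.8% (49.5% to 52.1%), 51.5% (50.2% to 52.8%) and 54.8% (53.7% to 55.9%) of its miR reads. The log2 fold change of 5p over 3p was 0.14 ± 0.13 SE (edgeR adjusted p = 0.34). Its sign depended on the scaling, being -0.88 with TMM (edgeR adjusted p = 1.1e-05) and -0.09 with DESeq2's own size factors (adjusted p = 0.68), which scale the 5p and 3p columns towards each other. The median over all hairpins was -0.26 without such scaling, -1.28 with TMM and -0.46 with DESeq2's size factors. Mir106b lay above the median in each, but the median does not mark equal arms. Of 79 hairpins with at least as many reads, Mir106b included, 5 lay within 1 log2 unit of equal arms and 5 were not called. Both sets of 5 hold Mir106b itself. They also hold Mir199a-1 and Mir199a-2, which had nearly the same number of 5p reads (155801 and 155892). Over all hairpins the median absolute log2 fold change was 4.83, and 11.3% were not called. The hairpin is shown because both of its strands, in capitals, were abundant.
Mir106b: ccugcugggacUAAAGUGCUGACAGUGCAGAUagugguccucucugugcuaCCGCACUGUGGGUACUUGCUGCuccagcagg

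Mir106a, whose 5p strand is almost that of miR-17-5p, had 13 reads on the 5p arm and 0 on the 3p arm, at least 4.33-fold more on 5p against the floor of 3 reads over the group. It reached the 10 reads required through its 5p arm alone, so its arm difference is given without a test. Mir18b and Mir20b had too few reads to be tested.

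**Figure D3:**
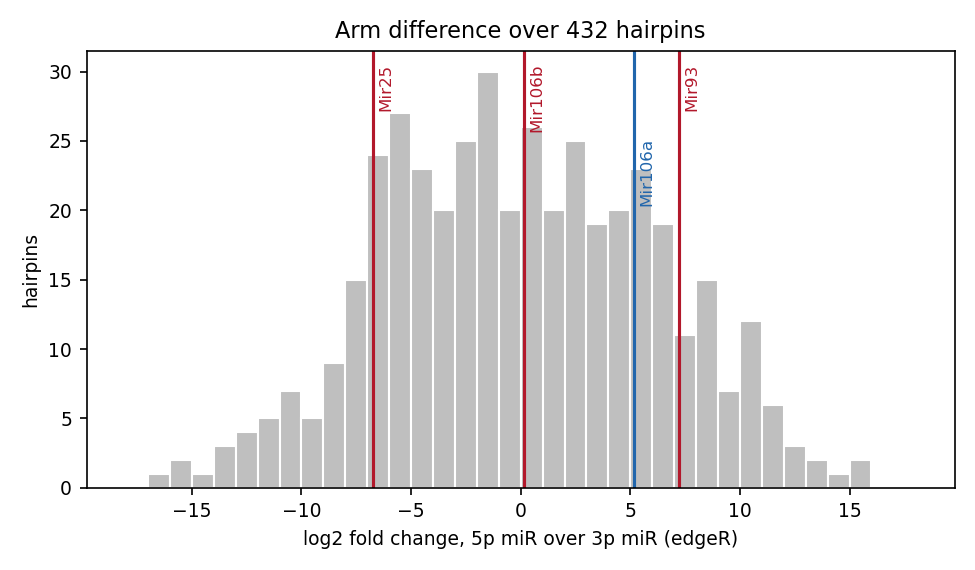
Histogram of the edgeR log2 fold change of 5p over 3p miR for 432 hairpins, in bins of 1 log2 unit. Vertical lines mark the mir-106b-25 hairpins (red) and Mir106a (blue, a value that is no bound because its 3p arm had 0 reads). Mir106b is at 0.14, Mir93 at 7.22 and Mir25 at -6.73.

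Levels of the main strands differed between libraries in RPMR. From replicate 1 as base, replicate 3 had a log2 ratio of 0.60 for miR-25-3p, 0.58 for miR-93-5p and 0.40 for miR-106b-5p. The median of 309 miRs at 10 RPMR or more was 0.02, and 94.5% of them had a smaller ratio than miR-25-3p. The mir-17-92 miRs miR-17-5p and miR-20a-5p had log2 ratios of 0.72 and 0.75. The minor strand miR-25-5p had a log2 ratio of -0.10, so that the log2 ratio of 3p over 5p of Mir25 rose by 0.70 between these libraries. The ratio was taken as the more abundant arm over the other, which for Mir93 and Mir106b is 5p over 3p. With its sign kept, the change of Mir25 was higher than in 95.0% of 140 hairpins with at least 100 reads on each arm. Replicate 1 also had the lowest share of mapped reads in windows, 73.1%, and the part of this in the levels was not tested. The 2 miRs with the levels nearest to miR-25-3p over the 3 libraries, by Euclidean distance in log2(RPMR + 0.1), were miR-20a-5p (0.264) and miR-221-3p (0.458). For miR-106a-5p they were miR-669d-2-3p (0.155) and miR-666-5p (0.354), each from few reads.

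moR reads were few at these hairpins. Of the 9 listed member moRs, 4 had reads, all from mir-106b-25 and none from mir-106a-363, where the miR reads were also few. Over the series 294 of 1295 listed moRs (22.7%) had reads. The members had 2, 11 and 12 moR reads in replicates 1, 2 and 3, and these 25 reads were 0.148% of all moR reads, while the members' miRs were 0.359% of all miR reads. None of the 34 moRs above 1 RPMR was a member. Scaled to 1e6 miR reads, mir-106b-25 had 50.7, 246 and 187 moR reads, against 366, 495 and 386 for mir-17-92 and 305, 463 and 454 for all hairpins. The ratio of mir-106b-25 to mir-17-92 was 0.138, 0.496 and 0.484, below 1 in 3 of 3 libraries, with an exact sign-flip permutation p of 0.25. Its replicate 1 value rests on 2 mir-106b-25 moR reads. The mir-17-92 miR reads again leave out those assigned to chromosome X. Any of these that came from chromosome 14 would raise the ratios.

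The moR windows with the most member reads are shown with the bases that belong to the neighbouring miR in capitals, from GENCODE M21 (GRCm38). They reach 35 bases outward and 3 bases inward of the outer end of the miR.
moR-93-5p: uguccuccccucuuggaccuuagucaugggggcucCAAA
moR-25-5p: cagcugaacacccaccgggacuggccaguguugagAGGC

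Each moR was compared with the miR of its arm by the same edgeR test over 243 arms with at least 1 moR read, of which 97.5% were called, 91.8% with the moR lower and 5.76% with the moR higher. Of the members 4 arms were tested. Of these, 3 reached the 10 reads required through the miR alone, so their log2 fold changes are given without p-values. The calls themselves carry little weight beside the ratios and their counting intervals. moR-93-5p had 2, 6 and 5 reads, against 14762, 15904 and 24589 for miR-93-5p, 4250 (2485 to 7983) miR reads per moR read (log2 fold change -12.01, edgeR adjusted p = 9.0e-113). moR-106b-3p had 0, 1 and 1 reads, against 2791, 2827 and 3486 for miR-106b-3p, 4552 (1260 to 37593) miR reads per moR read (log2 fold change -11.91). The median over the 243 arms tested was -8.67, and arms with 0 moR reads are not part of it.

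Beside the minor strands the values depended on single libraries. moR-25-5p had 0, 2 and 6 reads, against 231, 200 and 240 for miR-25-5p, 83.9 (42.3 to 195) miR reads per moR read (log2 fold change -6.33). The log2 fold change was -5.74 without replicate 1 and -7.58 without replicate 3. moR-93-3p had 0, 2 and 0 reads, against 103, 109 and 157 for miR-93-3p, 184.5 (50.7 to 1529) miR reads per moR read (log2 fold change -7.28). The log2 fold change was -6.57 without replicate 3 and -10.02 without replicate 2, which held both moR reads, so its place relative to the median over the tested arms is not settled. With TMM or DESeq2's own size factors, which scale moR columns towards miR columns, both signs turned. The arm of miR-25-5p was then at 1.94 with TMM and 1.69 with DESeq2, and the arm of miR-93-3p at 0.79 and 0.70. Those scalings moved the median over the tested arms to -0.47 and -0.42, and the calls to 66 higher and 104 lower with TMM and 81 higher and 99 lower with DESeq2, against the 5.76% higher and 91.8% lower without them. The moRs beside the abundant miR-25-3p and miR-106b-5p had 0 reads, so these miRs were at least 24274-fold and at least 3367-fold higher against the floor of 3 reads over the group.

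**Figure D4:**
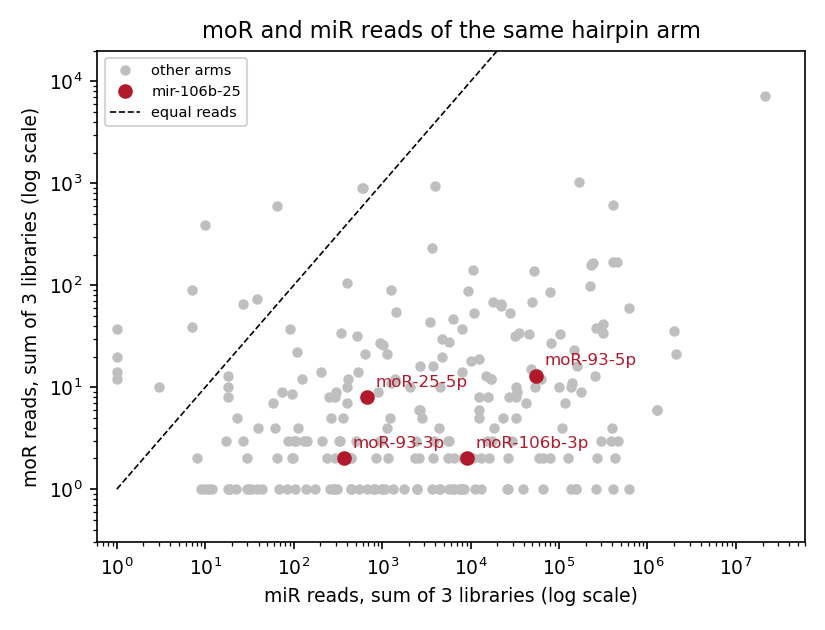
moR reads against miR reads of the same hairpin arm, each summed over 3 libraries, on log scales, for arms with at least 1 moR read and at least 1 miR read. Red points are mir-106b-25, grey points are other arms and the dashed line marks equal reads. The 4 labelled moRs had 2 to 13 reads and lie below the line.

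Between the arms, moR-93-5p had 2, 6 and 5 reads and moR-93-3p had 0, 2 and 0, 13 against 2 in all, a ratio of 6.5 (1.47 to 59.3). The hairpin reached the 10 reads required through the 5p moR alone, so its difference is given without a p-value. The edgeR log2 fold change was 2.53 ± 1.13 SE. Of 81 hairpins 92.6% were called, 81.5% with the 5p moR higher and 11.1% with the 3p moR higher. For Mir93 the log2 fold change was 2.32 without replicate 1, 1.92 without replicate 3 and 2.51 without the filter on low counts. Without replicate 2 the hairpin fell under the 10 reads required. The log2 fold change was 0.70 with TMM and 0.65 with DESeq2's own size factors, where the median over all hairpins was 2.38 and 1.80, against 4.21 without scaling. The split of all calls was 29 hairpins with the 5p moR higher and 12 with the 3p moR higher with TMM, 21 and 10 with DESeq2, and 66 and 9 without scaling. For Mir25 the 5p moR had 8 reads and the 3p moR 0, at least 2.67-fold more on 5p, and the sum of 8 was under the 10 reads required for the test.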

How the data were processed

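The authors trimmed adaptors, kept inserts over 13 bases and mapped 75-base single reads to mm10 with Bowtie, whose release is not given in the sources used here, allowing no mismatch and at most 5 loci. They split reads near more than 1 precursor evenly and counted reads inside miRBase miR coordinates widened by 3 bp, or inside moR windows. The deposited raw reads are thus expected counts, and all 54 member values were whole. The deposited RPM value (RPMR) has the window reads of the library as denominator.

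Members were matched by name, hairpins by GENCODE M21 and sequences by RefSeq. Members and lists were chosen with earlier results of these data known. Replicate numbers came from the titles. Both RNAs of a pair come from the same library, so the library was a block. Counts were rounded and tested with edgeR 4.0.16 (R 4.3.3), without scaling factors beyond the library's window reads, with a minimum sum of 10 reads and Benjamini-Hochberg adjusted p under 0.05. The SE of a fold change is its absolute value over the square root of the F statistic. The spread that edgeR used was moderated over all pairs of a fit, so its p-values do not rest on that of a single pair alone. The nearest miRs by level were named for the most abundant miR of each cluster. DESeq2 1.42.0 and TMM were alternatives. Intervals (SciPy 1.17.1) are exact, Clopper-Pearson for ratios and shares and Poisson for sums. A count of 0 was set to a floor of 3 reads in folds.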

Additional observations from a re-analysis of the deposited data

How the results depend on the processing

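Of the alternatives to values that summarise a comparison, 16 moved a count by over 1.5 times or a share by over 1 SD. For single members, 6 turned the direction and 4 moved a level by over 1 SD. Another 6 went over the threshold, all for Mir93 between its moRs, a difference given above without a p-value. The others kept direction and side of the threshold, though not always size. Scaling between the columns of a fit turned the arm difference of Mir106b, to -0.88 with TMM and -0.093 with DESeq2's own size factors, and that of moR over miR, to 1.94 and 1.69 for miR-25-5p and to 0.79 and 0.70 for miR-93-3p. It also moved the moR counts, to 66 arms with the moR higher and 104 lower with TMM and 81 and 99 with DESeq2, against 14 (5.76%) and 91.8% of 243, and the hairpins with the 5p moR higher to 29 and 21, against 66. A minimum of 30 reads gave 42 hairpins with the 5p moR higher and 4 with the 3p moR higher, against 66 and 9, with 47 hairpins left to test. DESeq2 with window totals, chosen after seeing the data, gave 4 with the 3p moR higher. It put the log2 fold change of Mir93 between its moRs at 3.07. Leaving out a replicate in turn gave 7 to 12 arms with the moR higher, 38 to 55 hairpins with the 5p moR higher and 3 to 5 with the 3p moR higher. The share of miR-18b-5p among AAGGUGC reads was then 0.0367% to 0.0847%, against 0.0565%, and the moR over miR value of miR-93-3p was -10.02 to -6.57. Taking the largest locus of each miR, which leaves out the chromosome X copy of miR-92a-3p, gave miR-25-3p 52.2% of the AUUGCAC reads, against 41.4%. Adding 1 RPMR to both levels lowered the log2 ratio of miR-106b-5p over miR-106a-5p to 7.54, against 9.70, without turning it. It lowered that of miR-93-5p over miR-20b-5p to 10.32, against 13.07, and of miR-25-3p over miR-363-3p to 10.75, against 12.95. Each of these ratios moved by over 1 SD, which the 16 above do not count. Without the replicate block, the calls were 189 and 200 for miR arms, 14 and 224 for moR over miR and 67 and 9 for moR arms, and no member call changed. Depth limited the mir-106a-363 values and the moRs, which rest on 17 and 25 reads.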
